A study of Drosophila melanogaster with 24 samples.

Results

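The genes described here are 10 components of the circadian clock of Drosophila melanogaster, followed by RNA-seq in ovaries and testes. They were taken by their FlyBase identifiers from the 15406 genes counted: per (FBgn0003068, chromosome X), tim (FBgn0014396, 2L), Clk (FBgn0023076, 3L), cyc (FBgn0023094, 3L), vri (FBgn0016076, 2L), Pdp1 (FBgn0016694, 3L), cry (FBgn0025680, 3R), cwo (FBgn0259938, 3R), dco (FBgn0002413, 3R) and jet (FBgn0031652, 2L). All 10 passed the filter on low counts in both tissues, among 8784 genes tested in ovaries and 12083 in testes.

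The series holds 24 libraries in 12 groups of 2 independent dissections. The ovary libraries come from XX females of the genotype tra2[ts1]/tra2[ts2] (tra2ts), which lose the splicing factor TRA2 at high temperature, and from w1118 females. The testis libraries come from XY males with UAS-tra[F] driven by tub-Gal4 under tub-Gal80[ts] (TraF), so that the ubiquitous driver makes the female form of tra once the repressor fails, and from males with the same driver and repressor alone (Control). Flies of all groups were raised at 18 °C, shifted at 5 days of age, and dissected 0, 12 or 24 h later. The restrictive temperature is given as 29 °C for ovaries and 30 °C for testes in 1 text of the labels, and as 29 °C for all in another. Egg chambers of late stages were discarded from the ovaries. The labels give neither a light schedule nor a clock time, and the 2 control genotypes differ in strain as well as in sex. The libraries at 0 and 24 h are a whole day apart and the 12 h libraries fall at the opposite time of day, if all groups were shifted at 1 clock time, which the labels do not say. Setting 12 h against 0 and 24 h also compares different hours at the restrictive temperature. Time of day and warming cannot be told apart in that contrast.

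In the fly clock, the bHLH factors CLK and CYC activate per and tim through E-boxes, and the PER and TIM proteins return to the nucleus and repress their own activators. A second loop runs through vri and Pdp1, also CLK-CYC targets, whose products repress and activate Clk, and cwo encodes a further repressor at E-boxes. The kinase encoded by dco (doubletime) phosphorylates PER, cry encodes the blue-light receptor that starts the breakdown of TIM, and jet encodes the F-box protein that carries this out. The male reproductive tract of flies is known to hold a clock that takes part in sperm release, and per and tim are known from follicle cells of the ovary, where their products do not cycle.

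Between 16136939 and 32782474 reads were assigned to genes in each library. Levels are given as CPM after TMM scaling within each tissue. The transgene showed in the counts of tra, at 216.6 to 285.5 CPM in TraF testes at 12 and 24 h, 19.89 to 22.89 CPM in TraF testes at 0 h, and at most 10.85 CPM in Control testes. For tra2, point alleles leave the counts uninformative, with 56.36 to 74.57 CPM in tra2ts and 63.05 to 83.26 CPM in w1118 ovaries. Summed levels of 8 follicle cell markers were 14570 to 35680 CPM in ovaries, against 46.93 to 96.4 CPM in the 0 and 24 h testes. The 8 testis germline markers reached at least 8724 CPM in testes at those hours and at most 118.6 CPM in ovaries. The Control 12 h replicate 1 library stood apart, with 2788 CPM over 11 accessory gland genes against 9.659 CPM in its replicate. Replicate p-values measure the spread between dissections within this 1 study.

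**Figure D1:**
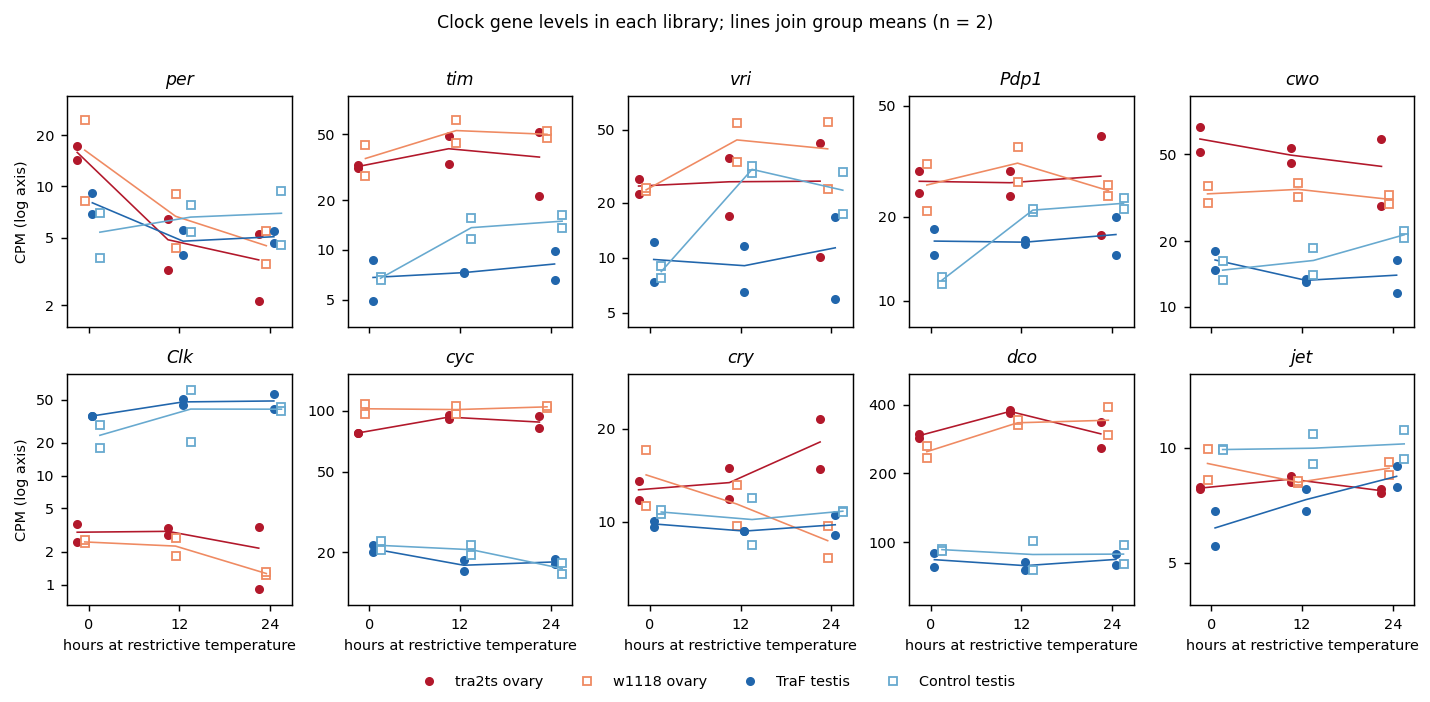
CPM of the 10 clock genes (log axis) by hours after the temperature shift, with 1 point per library and a line through the mean of each group of 2. Each panel has its own axis range. All testis libraries lie above all ovary libraries for Clk and below them for cyc and dco, and tim, vri and Pdp1 lie higher at 12 and 24 h than at 0 h in Control testes.

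The largest differences among these genes lay between the tissues, and the activator pair was split. With all 24 libraries scaled together, Clk was 0.794 to 3.42 CPM over the 12 ovary libraries, resting on 19 to 116 reads each, and 19.67 to 67.02 CPM over the 12 testis libraries. Its partner cyc ran the other way, from 68.48 to 98.86 CPM in ovaries and from 17.15 to 24.84 CPM in testes. No library of one tissue reached the range of the other for either gene.

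Over all hours, w1118 ovaries were set against Control testes in a fit of all 24 libraries. Here 89.8% of the 12411 genes tested were called, 35.8% higher and 54% lower in ovaries, so a call by itself says little, and the median gene was -0.81 on the log2 scale, or -1.13 with another scaling (RLE). The comparison cannot tell tissue from sex or strain. Clk differed by -4.42 on the log2 scale (SE 0.306) and cyc by 2.13 (SE 0.0869), with Benjamini-Hochberg adjusted p of 1.87e-10 and 9.98e-14 by the quasi-likelihood test of edgeR. Measured from the median gene, these were -3.60 for Clk and 2.94 for cyc. In the ratio per kilobase of exon within a library, cyc stood at a median of 106 times Clk in ovaries (range 60.5 to 284) and at 1.20 times Clk in testes (range 0.859 to 3.51).

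In the negative limb, tim was higher in ovaries by 1.76 (SE 0.219, adjusted p = 6.1e-07 in the same edgeR test), and its ranges of 18.29 to 56.64 CPM in ovaries and 5.438 to 17.96 CPM in testes did not meet. By contrast, per differed by 0.06 (SE 0.316, 95% interval -0.61 to 0.73), or -0.25 with RLE scaling, so its sign depends on the scaling. The ratio of tim to per, per kilobase, had a median of 4.79 in ovaries and 0.945 in testes. The repressor cwo was higher in ovaries by 0.66 (SE 0.165, adjusted p = 0.00124 by edgeR), and its libraries did not overlap, at 25.06 to 63.35 CPM against 12.81 to 24.09 CPM. For vri and Pdp1 the differences were 0.64 (95% interval -0.08 to 1.36) and 0.34 (95% interval -0.03 to 0.71), neither of which was called. A fit with a replicate block for each tissue compares the tissues at the level of replicate 1, so it is not the same comparison. There vri was at 1.13 (edgeR adjusted p = 0.00701).

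Of the genes acting on PER and TIM proteins, the kinase gene dco was higher in ovaries by 1.49 (SE 0.117, edgeR adjusted p = 1.04e-09), from 212.6 to 360.8 CPM against 82.27 to 110.5 CPM. The light-input gene jet was lower in ovaries by -0.48 (SE 0.111, edgeR adjusted p = 0.000557), yet 0.33 above the median gene, and its libraries overlapped. For cry the difference was -0.19 (95% interval -0.49 to 0.10), which was not called. It was called lower with RLE scaling (-0.51, edgeR adjusted p = 0.00385) and in the related size-factor fit of DESeq2 (-0.51, adjusted p = 0.00135). In the replicate block fit, at the level of replicate 1, cry was at -0.37 (edgeR adjusted p = 0.0291). Thus 4 of the 10 genes were called higher in ovaries and 2 lower. Their median log2 difference was 0.49 against -0.81 for all genes. Over all 12 libraries of each tissue, tim, cyc, cwo and dco did not overlap on the higher side and Clk on the lower, where 26% and 43.4% of all genes did so.

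**Figure D2:**
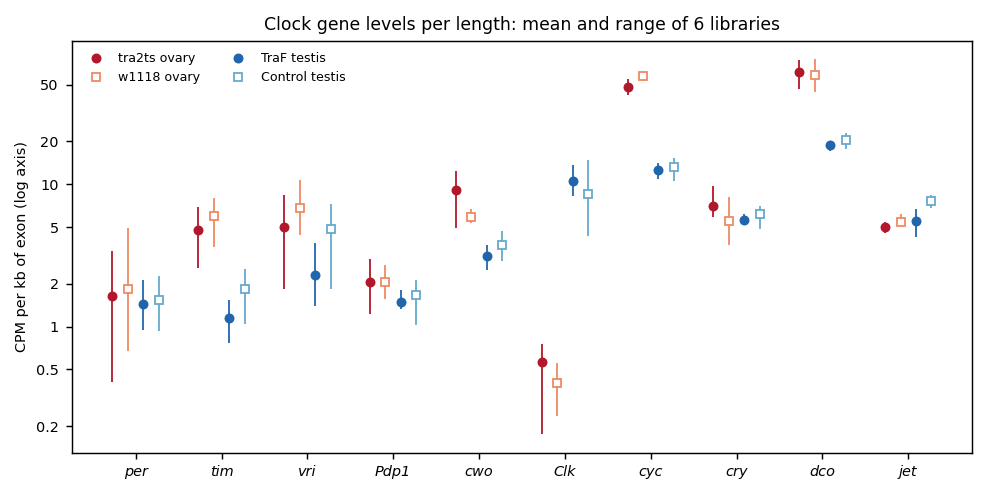
CPM per kilobase of exon (log axis) of the 10 genes in the 4 tissue and genotype combinations, scaled over all 24 libraries, as the mean of 6 libraries with the lowest and highest library. In ovaries cyc exceeds Clk by about 2 orders of magnitude, while in testes the ranges of cyc and Clk meet.

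Ranked per kilobase of exon, with exons merged over all annotated transcripts, dco came first and cyc next in all 4 combinations of tissue and genotype. In w1118 ovaries these were 58.8 ± 11.4 CPM per kb (SD, n = 6 libraries over the 3 hours) for dco and 57.6 ± 3.27 for cyc, which overlapped. The next 5, vri, tim, cwo, cry and jet, lay between means of 5.44 and 6.83 CPM per kb, and neighbours among them did not differ beyond their spread. Last came Pdp1 at 2.05 ± 0.416, per at 1.84 ± 1.57 and Clk at 0.403 ± 0.131 CPM per kb.

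Control testes gave another order, with dco at 20.6 ± 2.11 CPM per kb, cyc at 13.3 ± 1.86 and then Clk at 8.53 ± 3.87. Then came jet, cry, vri, cwo, tim and Pdp1, and per ended the order at 1.53 CPM per kb (range 0.932 to 2.25). From cyc down neighbours overlapped, except cwo (2.89 to 4.73 CPM per kb) and tim (1.04 to 2.55), which did not. In TraF testes tim was last, at 1.15 ± 0.254. Among relatives of the clock genes, timeout, the paralog of tim, was at 8.18 ± 0.896 CPM per kb in w1118 ovaries and 5.24 ± 0.207 in Control testes. The 6-4 photolyase gene phr6-4, a relative of cry, was at 28.0 ± 3.01 and 4.35 ± 1.44 CPM per kb.

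The comparison of opposite times of day, under the assumption given above, called none of the 10 genes. At 12 h against the average of 0 and 24 h, the count was 0 of 10 in tra2ts ovaries, where 0% of all genes were called, in w1118 ovaries (0.0114% of all genes), in TraF testes (0.0414%) and in Control testes (0.00828%). It was also 0 of 10 with both genotypes together, in ovaries (0.0228% of all genes) and in testes (0.0745%). DESeq2 likewise called none of the 10 in these 6 comparisons. At an unadjusted p under 0.05, the count was 2 of 10 in Control testes, where 443 of all 12083 genes passed, and 0 of 10 in the other 5 comparisons.

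Control testes held both genes that came nearest. vri was 9.040 and 7.798 CPM at 0 h, 29.12 and 31.72 CPM at 12 h, and 29.47 and 17.34 CPM at 24 h. Both 12 h libraries lay above both 0 h libraries, but 1 of the 24 h libraries reached them. At 12 h against 0 and 24 h the log2 difference was 1.11 (SE 0.365, 95% interval 0.31 to 1.92, adjusted p = 0.733 in edgeR's quasi-likelihood test). For Pdp1 it was 0.38 (SE 0.145, 95% interval 0.06 to 0.70, adjusted p = 1.00 in the same test). Pdp1 was 11.52 and 12.19 CPM at 0 h, 20.84 and 21.4 CPM at 12 h, and 21.3 and 23.38 CPM at 24 h. Its 24 h libraries reached those of 12 h, and only the 0 h libraries stood lower.

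In TraF testes the same difference for vri was -0.21 (95% interval -1.07 to 0.65). The test of TraF against Control in this contrast gave -1.32 for vri (SE 0.543, unadjusted p = 0.0333 and adjusted p = 1.00 by edgeR), and none of the 10 genes was called where 0.00828% of all genes were. The ovary test of the same kind also called none of the 10, with 0% of all genes called.

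The unadjusted 95% intervals give the sizes of difference that the data left possible in this contrast. They do not bound what could go uncalled after adjustment, since vri in Control testes was not called although its interval leaves out 0. A rhythm whose 12 h level equals the average of 0 and 24 h would go unseen at any size. With both genotypes together in testes, the 95% interval of the 12 h difference reached from -0.66 to 0.35 for per, from -0.16 to 0.57 for tim and from -0.14 to 1.04 for vri on the log2 scale. In ovaries it reached from -1.37 to 0.35 for per, from -0.23 to 0.81 for tim and from -0.55 to 1.12 for vri. The narrowest was that of cyc, from -0.21 to 0.17 in testes and from -0.16 to 0.30 in ovaries. A fall of 1 log2 unit in ovary per, or a rise of that size in ovary vri, lies within these intervals. Taken by genotype, the interval of testis vri was 0.31 to 1.92 in Control and -1.07 to 0.65 in TraF.

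**Figure D3:**
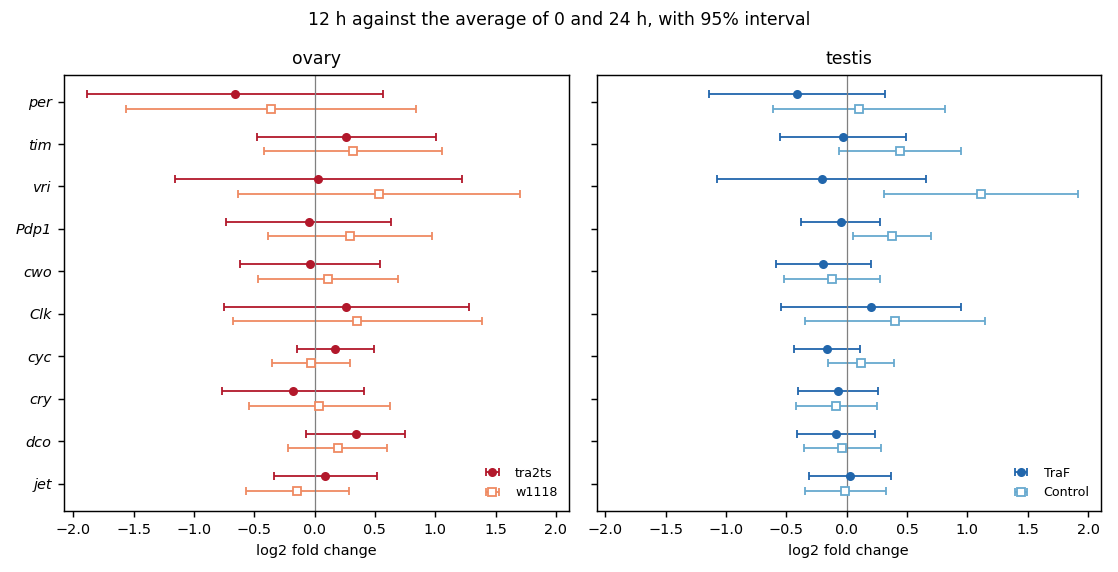
Log2 fold change of 12 h against the average of 0 and 24 h for each clock gene, by tissue and genotype, with its unadjusted 95% interval from the edgeR fit. All intervals cross 0 except those of vri and Pdp1 in Control testes, which do not pass adjustment over all genes.

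Read library by library, the 12 h samples separated from those of 0 and 24 h for few of these genes. Pooled over genotypes, none of the 10 did so in ovaries or testes, where 0.159% and 0.207% of all genes did. Within tra2ts ovaries, dco and jet were higher in both 12 h libraries than in the other 4, where 12.2% of all genes separated in either direction. Within w1118 ovaries jet was lower in both 12 h libraries (6.28% of all genes in either direction). In the edgeR fit the 12 h difference of jet was 0.09 in tra2ts ovaries (interval -0.33 to 0.51). In w1118 ovaries it was -0.14 (interval -0.57 to 0.28). The difference between the genotypes was 0.23 (interval -0.37 to 0.83), so a change of direction for jet was not established. None of the 10 separated in TraF (8.78%) or Control testes (4.53%). Ovary against testis, the 12 h difference called none of the 10 (0.0161% of all genes).

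**Figure D4:**
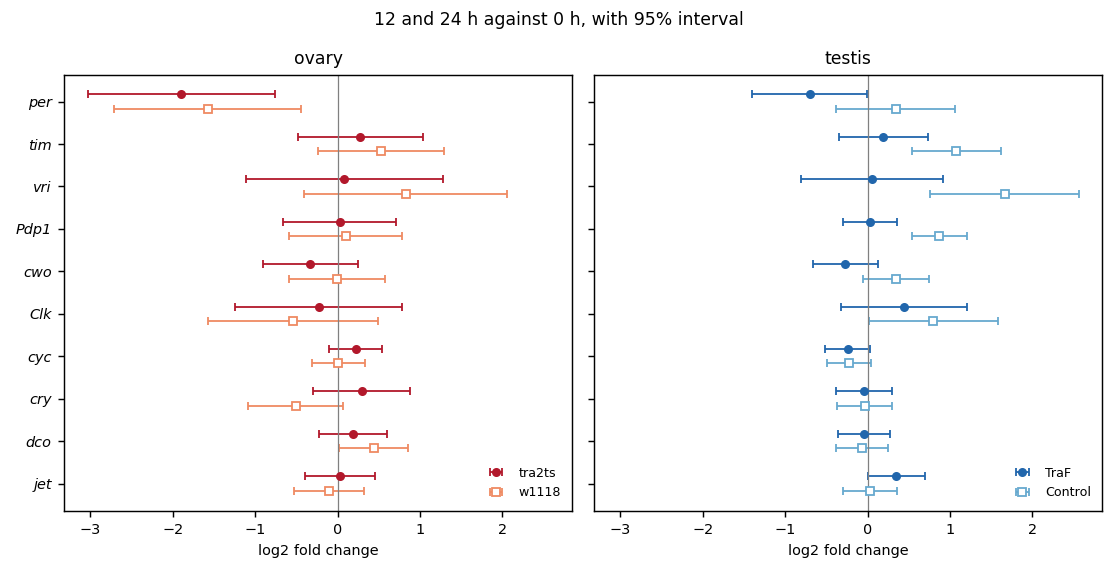
Log2 fold change of 12 and 24 h against 0 h for each clock gene, by tissue and genotype, with its unadjusted 95% interval from the edgeR fit. The point of per lies at -1.90 in tra2ts and -1.58 in w1118 ovaries, and in Control testes tim (1.08), vri (1.67) and Pdp1 (0.87) lie to the right of 0 while in TraF testes their intervals cross it.

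The libraries of 0 and 24 h, like times of day under the same assumption, did differ. Those of 24 h also followed 24 h at the restrictive temperature. In ovaries per, the repressor at the centre of the loop, was 14.36 and 17.34 CPM at 0 h in tra2ts and 8.215 and 24.44 CPM in w1118. At 24 h it was 5.259 and 2.125 CPM in tra2ts and 3.500 and 5.449 CPM in w1118. All 4 libraries at 24 h lay below all 4 at 0 h, which 4.97% of all genes did in that direction. With both genotypes together per fell by 1.98 on the log2 scale (SE 0.447, adjusted p = 0.0418 by edgeR's quasi-likelihood test), and it was the only one of the 10 called, where 3.9% of all genes were.

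At 12 h per was already at 3.234 and 6.469 CPM in tra2ts and at 4.317 and 9.022 CPM in w1118, and the w1118 values overlapped those of 0 h. Taking 12 and 24 h together against 0 h, a contrast added after the data were seen, the log2 difference was -1.90 in tra2ts (SE 0.508, edgeR adjusted p = 0.142) and -1.58 in w1118 (SE 0.507, edgeR adjusted p = 0.197). Without w1118 0 h replicate 2, the highest of all ovary libraries, the w1118 value was -0.59. None of the 10 was called in either genotype (0.433% and 0.672% of all genes), although DESeq2 called per in tra2ts with an adjusted p of 0.0187. The genotypes differed in this contrast by -0.32 for per (95% interval -1.99 to 1.34), and none of the 10 was called (0.0114% of all genes).

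The call of per rests on few libraries. Leaving out 1 library at a time kept it past the threshold in 2 of 8 runs, with log2 values from -2.38 to -1.49. It was lost, with edgeR adjusted p from 0.0678 to 0.151, without either tra2ts 0 h library, tra2ts 24 h replicate 2, w1118 0 h replicate 2 or either w1118 24 h library. Without the 2 ovary libraries with the most reads outside genes (tra2ts 24 h replicate 2 and w1118 24 h replicate 1), it was -1.59 with an edgeR adjusted p of 0.105.

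Summed markers of muscle and hemocytes were also lower at 24 h than at 0 h, without overlap within either genotype. Summed over 11 muscle genes, the level was 790.9 to 2027 CPM at 0 h and 346.9 to 1192 CPM at 24 h, and over 6 hemocyte genes it was 46.79 to 191.5 CPM at 0 h and 20.36 to 68.25 CPM at 24 h. Of the muscle genes, 11 of 11 lay below 0 and 3 were called lower, and of the hemocyte genes 4 of 6 lay below 0 and 2 were called lower. The 24 h duplicates also differed in the sum of 6 ovary germline genes. In replicates 1 and 2 it was 4607 and 1839 CPM in tra2ts, and 2569 and 4628 CPM in w1118. At 0 h this sum was 3384 to 5421 CPM over both genotypes. The lower library of each 24 h group is the one named above for reads outside genes. The part of these markers in the fall of per was not tested. In whole gonads fewer cells of a type and less RNA per cell cannot be told apart.

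The other ovary genes were not called at 24 h against 0 h. For tim the difference was 0.34 (95% interval -0.27 to 0.95), for vri 0.42 (95% interval -0.56 to 1.39) and for Clk -0.72 (95% interval -1.58 to 0.14). In w1118, tim was 43.25 and 28.18 CPM at 0 h and 44.14 to 61.27 CPM over the 4 later libraries, which did not overlap. dco was 264.7 and 233.5 CPM at 0 h and 294.7 to 389.6 CPM later, also without overlap (11.5% of all genes in that direction). Neither was called, and in tra2ts both overlapped.

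In testes tim and Pdp1 were the genes called. With both genotypes together, tim rose at 24 h against 0 h by 0.71 on the log2 scale (SE 0.194, adjusted p = 0.0362) and Pdp1, the activator of Clk transcription, by 0.50 (SE 0.121, adjusted p = 0.0232) by edgeR's quasi-likelihood test. These were 2 of 10 called, where 12.2% of all genes were. vri was at 0.85 (95% interval 0.15 to 1.54, edgeR adjusted p = 0.114), but at 0.39 without TraF 24 h replicate 2 and called at 1.12 (edgeR adjusted p = 0.0449) without TraF 24 h replicate 1. Clk was at 0.63 (95% interval 0.01 to 1.25, edgeR adjusted p = 0.181).

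All 4 Clk libraries at 24 h lay above all 4 at 0 h (10.7% of all genes on that side), and all 4 of cyc lay below (8.91%). Clk was 35.21 and 35.51 CPM in TraF and 18.08 and 28.91 CPM in Control at 0 h, and 40.85 and 56.31 CPM in TraF and 42.45 and 39.19 CPM in Control at 24 h. For cyc the difference was -0.30 (95% interval -0.52 to -0.07, edgeR adjusted p = 0.0835). Neither gene was called.

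Within Control testes, levels of tim, vri and Pdp1 were lowest at 0 h. There tim was 6.878 and 6.603 CPM at 0 h, 15.56 and 11.70 CPM at 12 h, and 13.52 and 16.32 CPM at 24 h. Pdp1 was 11.52 and 12.19 CPM at 0 h and 20.84 to 23.38 CPM over the 4 later libraries. These genes and vri had all 4 later libraries above both at 0 h, as did 11.9% of all genes.

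At 12 and 24 h against 0 h in Control testes, tim rose by 1.08 (SE 0.244, adjusted p = 0.0481) and Pdp1 by 0.87 (SE 0.153, adjusted p = 0.0175) in edgeR's quasi-likelihood test. They were the 2 of 10 called, where 2.36% of all genes were. vri differed by 1.67 (SE 0.410, edgeR adjusted p = 0.0654) and was not called. This contrast was also added after the data were seen, and it shares its libraries with that of 24 against 0 h.

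In TraF testes the libraries of these genes overlapped. There tim was 8.741 and 4.881 CPM at 0 h and 6.618 to 9.815 CPM later, and Pdp1 was 18.09 and 14.64 CPM at 0 h and 14.61 to 19.94 CPM later. The 95% intervals of the differences at 12 and 24 h against 0 h were -0.34 to 0.73 for tim and -0.29 to 0.36 for Pdp1. None of the 10 was called in TraF (3.33% of all genes), 2 of 10 had an unadjusted p under 0.05 (per at -0.70 and jet at 0.35) as did 2240 of all 12083 genes, and DESeq2 called none either. The libraries of Clk and jet at 12 and 24 h lay above those at 0 h (15.1% of all genes), and those of per and cyc lay below (16.2%).

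The genotypes were then set against each other in this contrast. TraF minus Control was -0.84 for Pdp1 (SE 0.210, unadjusted p = 0.00217), -1.61 for vri (SE 0.552, unadjusted p = 0.0141), -0.89 for tim (SE 0.338, unadjusted p = 0.0240), -1.05 for per (SE 0.459, unadjusted p = 0.0438) and -0.61 for cwo (SE 0.253, unadjusted p = 0.0336) in edgeR's quasi-likelihood test. Each had an adjusted p of 1.00, so a difference between genotypes was not established for any of the 10, where 0.00828% of all genes were called. Below 0 were 8 of the 10, with a median of -0.48 against -0.00 over all 12083 genes, of which 308 had an unadjusted p under 0.05. DESeq2 called none of the 10. With 1 library left out the values kept their sign but moved, to -0.41 for tim without TraF 0 h replicate 1 and to -0.67 for per without Control 0 h replicate 2.

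These testis calls also rest on few libraries. Each run left a group with 1 library, and at 24 against 0 h fewer genes of the whole set were called in every run. The loss of calls was therefore not particular to tim and Pdp1. For 24 against 0 h, tim and Pdp1 each kept the call in 2 of 8 runs that leave out 1 library, those without replicate 1 of TraF at 0 h or at 24 h. Without any of the other 6 libraries the edgeR adjusted p was 0.0683 to 0.150 for tim and 0.0501 to 0.0914 for Pdp1. The log2 values stayed between 0.53 and 0.94 for tim and between 0.38 and 0.59 for Pdp1.

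Within Control testes, tim kept its call in 1 of 6 runs, that without 12 h replicate 2, and Pdp1 in 3 of 6, those without either 12 h library or without 24 h replicate 1. Otherwise the edgeR adjusted p was 0.0656 to 0.337 for tim and 0.0707 to 0.228 for Pdp1, with log2 values from 0.97 to 1.17 and from 0.83 to 0.91. The library with accessory gland RNA is Control 12 h replicate 1. Without it the call of Pdp1 was kept and that of tim was lost, and without the filter on low counts the edgeR adjusted p of tim was 0.0557.

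Some marker genes of other tissues differed between these testis libraries. Summed over 8 gut genes, levels were 22.13 to 26.1 CPM at 0 h and 95.67 to 125.8 CPM at 24 h in Control, and 2.411 to 3.085 CPM and 29.41 to 38.39 CPM in TraF. Of these genes 4 were tested, of which the amylase genes Amy-p and Amy-d were called higher and the other 2 lay below 0. The 5 neuron and glia genes were 54.79 to 77.92 CPM at 0 h and 40.38 to 43.99 CPM at 24 h over both genotypes, with nSyb and brp called lower of 4 tested, and the testis germline sum overlapped, at 8815 to 10570 CPM and 8724 to 10840 CPM. Their part in the differences of tim, vri and Pdp1 was not tested. The small heat shock gene Hsp23 rose in testes by 1.20 (SE 0.146, edgeR adjusted p = 0.000829) and in ovaries by 2.38 (SE 0.296, edgeR adjusted p = 0.00447) at 24 h against 0 h. It is 1 gene of a list of 16 heat shock genes, whose sum did not rise in ovaries. That sum was 7067 to 8685 CPM at 0 h and 6701 to 7720 CPM at 24 h in ovaries. In testes it was 3366 to 4107 CPM at 0 h and 3981 to 4419 CPM at 24 h, which overlapped.

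Ovary and testis were compared in the 24 against 0 h difference, another contrast added after the data were seen. None of the 10 was called (4.75% of all genes), and 3 had an unadjusted p under 0.05, as did 2153 of all 12411 genes. per was lower in the ovary by -1.85 (SE 0.549, edgeR adjusted p = 0.0647), Clk by -1.36 (SE 0.487, edgeR adjusted p = 0.132), and cyc was higher by 0.37 (SE 0.145, edgeR adjusted p = 0.170). DESeq2 called per and cyc here, but its share over all genes is not given. With 1 library left out in turn, the edgeR values ran from -2.29 to -1.33 for per and from -2.02 to -1.02 for Clk. The fall of per in ovaries is therefore not shown by edgeR to differ from its value of -0.14 in testes (95% interval -0.72 to 0.44).

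Genotypes over all 3 hours differed in 1 gene. In testes, jet was 5.526 to 8.955 CPM in the 6 TraF libraries, with a median between 6.849 and 7.778, and 9.091 to 11.13 CPM in the 6 Control libraries. No library overlapped, as for 2.3% of all genes on that side. It was lower in TraF by -0.47 on the log2 scale (SE 0.102, adjusted p = 0.0214 by edgeR's quasi-likelihood test), the 1 of 10 called where 5.36% of all genes were. The difference was there at 0 h, before the shift, at 6.812 and 5.526 CPM in TraF against 9.943 and 9.835 CPM in Control. At that hour tra was also higher in TraF, at 19.89 to 22.89 CPM against 9.59 to 10.85 CPM in Control, and its part was not tested.

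Leaving out 1 library kept the call of jet in 5 of 12 runs, with log2 values from -0.52 to -0.42. The edgeR adjusted p was 0.0518 to 0.0837 without TraF 0 h replicate 2, either TraF 12 h library, TraF 24 h replicate 1, either Control 0 h library or Control 24 h replicate 2. In a later annotation of this genome jet shares 119 exonic bases (8.19% of its exons) with betaggt-I on the other strand, and the strand setting of the counts is not given in the sources used here, so its reads may include some of that gene. Lower in TraF but not called were tim at -0.59 (95% interval -0.93 to -0.24, edgeR adjusted p = 0.0584) and vri at -0.86 (95% interval -1.43 to -0.30, edgeR adjusted p = 0.0870). DESeq2 called both tim and vri (its share over all genes is not given). They passed in edgeR in 2 and 1 of 12 runs that leave out 1 library.

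In ovaries none of the 10 was called between tra2ts and w1118 (4.02% of all genes), 2 had an unadjusted p under 0.05 as did 1240 of all 8784 genes, and DESeq2 called both. One was cwo, at 28.98 to 66.48 CPM in tra2ts and 29.54 to 37.07 CPM in w1118. Its difference was 0.62 (SE 0.174, 95% interval 0.23 to 1.01, edgeR adjusted p = 0.0911), and it passed the threshold without tra2ts 24 h replicate 2, the single tra2ts library below all of w1118. The other was cyc, at 77.31 to 94.85 CPM in tra2ts and 96.20 to 108.6 CPM in w1118. No cyc library overlapped (1.21% of all genes on that side), and the difference was -0.26 (SE 0.0957, 95% interval -0.47 to -0.04, edgeR adjusted p = 0.226). Both differences were there at 0 h, before the shift. At that hour cwo was 66.48 and 51.17 CPM in tra2ts against 29.99 and 35.9 CPM in w1118. For cyc the 0 h values were 78.15 and 77.31 CPM in tra2ts against 96.2 and 108.6 CPM in w1118. In the same comparison 8 of 11 muscle genes (median 1.20) and 5 of 6 hemocyte genes (median 2.00) were called higher in tra2ts, and their part in the values of cwo and cyc was not tested.

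Some members moved together from library to library. In testes, over 12 libraries of both genotypes, Pearson's r of log2 CPM was 0.861 between tim and vri, 0.851 between tim and Pdp1 and 0.803 between vri and Pdp1. In ovaries it was 0.823 between tim and vri, 0.568 between tim and Pdp1 and 0.679 between vri and Pdp1. The highest other ovary value was 0.782 between Clk and cwo, and the lowest was -0.791, both between tim and cry and between cyc and cwo. These points share libraries, hours and genotypes, so the values are a description.

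Outside the members, the genes most like per across ovary libraries, among those with a mean of at least 5 CPM, were Traf4 (r = 0.944), THADA (0.942) and CG2493 (0.939). Those most like tim in ovaries were CG31368 (0.960), Nup93-1 (0.927) and CG33095 (0.917), and those most like vri were Acph-1 (0.915), an unnamed gene (FBgn0085378, 0.909) and Polr1A (0.873). In testes, Kap3 (0.867), Ncc69 (0.860) and Ppcs (0.851) were most like per. hry, the bHLH repressor hairy, was among the 3 most like both tim (0.883) and vri (0.856) in testes, beside CG4239 (0.908) and CG7231 (0.872) for tim and stumps (0.892) and Poxm (0.871) for vri.

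A list of 36 further clock genes (kinases, phosphatases, ubiquitin ligase parts, light and temperature inputs, outputs) had 35 in the files, of which 29 were tested in ovaries and 34 in testes. None of these was called at 12 h against 0 and 24 h in either tissue with both genotypes together, where 1 of 29 and 3 of 34 had an unadjusted p under 0.05, as did 673 of 8784 and 747 of 12083 genes in all. At 24 h against 0 h none of 29 was called in ovaries, and 4 of 34 were in testes (12.2% of all genes).

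In testes e (ebony), which couples beta-alanine to dopamine and acts in glia, rose by 1.27 (SE 0.192, adjusted p = 0.00251) and qsm, a membrane-anchored light-input factor, by 0.81 (SE 0.159, adjusted p = 0.00900) by edgeR. Pdfr, the receptor of the clock neuropeptide PDF, fell by 1.06 (SE 0.234, adjusted p = 0.0147) and the RNA-binding gene nonA by 0.49 (SE 0.143, adjusted p = 0.0490) by edgeR. At 12 and 24 h against 0 h, e rose in Control testes by 1.34 (edgeR adjusted p = 0.0233), the 1 of 34 called (2.36% of all genes). Pdfr fell in TraF testes by 1.17 (edgeR adjusted p = 0.0465), also the 1 of 34 called (3.33% of all genes).

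Between w1118 ovaries and Control testes, 21 of 34 were called higher in ovaries and 11 lower, where 35.8% and 54% of all genes were, with a median of 1.12 against -0.81 for all genes. The 8 with the lowest p included the phosphatase 2A genes wdb (2.86) and mts (1.80), phr6-4 (2.70) and the RNA-binding gene lark (1.52), all higher in ovaries. Lower in ovaries were the temperature-input receptor gene Ir25a (-5.87) and the cullin gene Cul3 (-2.87). Hr51, a nuclear receptor gene, had 2 counts over the 6 ovary libraries and 867 over the 6 testis libraries. e had 0 counts in ovaries and 1077 in testes, at least 444-fold higher in testes relative to library size, with 3 counts over the group as the floor. timeout was higher in ovaries by 0.64 (edgeR adjusted p = 0.000209).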

How the data were processed

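The authors used TopHat 1.4.1, the build dm3 and HTSeq, per the submitters' processing notes. The deposited files hold raw counts per gene, without normalization, 1 file per library. The annotation, the HTSeq version and the strand setting are not given in the sources used here. Summary lines were left out of library sizes. Reads outside genes were 1.07% to 2.48% and ambiguous reads 1.88% to 4.3% per library. A symbol was matched to 14732 of 15406 identifiers. Chromosome arms and exon lengths come from a later annotation (BDGP6), joined on the FlyBase identifier, and coordinates are therefore left out. By that annotation tim shares 7.74% of its exonic length with an antisense RNA gene and cry 17.4% with an RNA gene on its own strand. Per kilobase values divide by the exonic length merged over all annotated transcripts, 12138 bases over 13 transcripts for Pdp1 and 1625 bases over 1 for cyc. A gene whose transcripts each use only part of these exons comes out lower in the order.

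In R 4.3.3 with edgeR 4.0.16, 1 mean per group was fitted to the 12 libraries of a tissue, or to all 24 for ovary against testis, after filterByExpr (at least 10 counts) and TMM scaling. The two-sided quasi-likelihood test was adjusted by Benjamini-Hochberg across every gene in the fit (threshold 0.05), with a prior count of 0.125 for fold changes. Intervals are 95% and unadjusted. Correlations use log2 CPM with a prior count of 2. The analysis script was tested on simulated data. Alternatives were RLE scaling, no filter, DESeq2 1.42.0, a replicate block, and each library left out. The run without 2 ovary libraries and the contrasts marked so in the text were added after the data were seen. Named were the 10 genes, timeout and phr6-4, called genes of the further clock list (at most 8 per contrast) and the 3 genes most like per, tim and vri in each tissue. Hsp23, tra and tra2 were added after their values were seen. The members and lists were chosen with earlier results of these data known. Of the lists, slmb and a few markers were not matched in the files (2 ovary germline, and 1 each for testis germline, accessory gland, fat body, muscle and neuron).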

Additional observations from a re-analysis of the deposited data

How the results depend on the processing

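Of the 21 counts of clock genes called, 84 alternative values lay within 1.5 times the main one and 9 did not. Among the former, w1118 ovaries against Control testes went from 6 to 7 with RLE scaling, DESeq2 or no filter. With the replicate block, which compares these tissues at the level of replicate 1, the count went to 8. For ovaries at 24 h against 0 h the count went from 1 to 0 without the 2 ovary libraries with the most reads outside genes. Between tra2ts and w1118 it went from 0 to 1 without the filter on low counts and without those 2 libraries (cwo), and to 2 with DESeq2. Between TraF and Control it went from 1 to 3 with DESeq2. At 12 and 24 h against 0 h it went from 0 to 1 in tra2ts ovaries (per) without the filter and with DESeq2, and from 2 to 1 in Control testes without the filter. For ovary minus testis at 24 h against 0 h it went from 0 to 2 with DESeq2. The DESeq2 share over all genes is not given for TraF against Control or for ovary minus testis. The cause of these moves was not tested. No called value reversed, and per, not called between the tissues, went from 0.06 to -0.25 with RLE scaling or DESeq2. With the block, at the level of replicate 1, per was at -0.37.

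With 1 library left out in turn, the count ranged from 0 to 2 for ovaries at 24 h against 0 h, 0 to 1 for tra2ts against w1118, 0 to 3 for testes at 24 h against 0 h, 0 to 3 for TraF against Control, 6 to 7 for w1118 ovaries against Control testes, 0 to 2 for Control testes at 12 and 24 h against 0 h, and 0 to 4 for ovary minus testis at 24 h against 0 h. In the other comparisons it was 0 in every such run. A group left with 1 library is assumed to vary like the others.

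The replicate numbers were not taken as pairing the samples, since the labels state no pairing and the correlation of same-numbered deviations did not exceed 0.1 in every pair of groups. It did so in most, 12 of 15 in ovaries (median 0.178) and 11 of 15 in testes (median 0.203), which is a hint from the data and not the design. In testes, reads outside genes were 2.24% to 2.46% in replicate 1 and 2% to 2.23% in replicate 2. The summed photoreceptor markers of testes were 20.61 to 23.99 CPM in replicate 1 and 27.02 to 31.87 CPM in replicate 2. A difference shared by same-numbered testis libraries is thus present, and the main fits have no term for it. With the replicate block the count of clock genes called moved in no comparison by over 1.5 times, and over all genes it went from 1 to 14 (Control) and from 9 to 18 (testes) at 12 h, and from 402 to 776 in TraF, 285 to 477 in Control testes and 38 to 68 in tra2ts ovaries at 12 and 24 h against 0 h.

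Over all genes, DESeq2 at 12 h against 0 and 24 h called 3 genes in tra2ts, 4 in w1118 and 33 in all ovaries (edgeR 0, 1 and 2), and 24 in TraF, 63 in Control and 73 in all testes (edgeR 5, 1 and 9). At 24 h against 0 h it called 856 in ovaries (edgeR 343), and between tra2ts and w1118 it called 629 (edgeR 353). At 12 and 24 h against 0 h it called 350 and 419 in tra2ts and w1118 (edgeR 38 and 59, and 109 and 192 without the filter), and 673 and 479 in TraF and Control (edgeR 402 and 285). Ovary Clk and per rest on as few as 19 and 44 reads per library. At 24 h against 0 h their SE was 0.383 and 0.447, and that of ovary vri, with at least 208 reads, was 0.437.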
